A study of Chlorocebus sabaeus with 3 samples.

Results

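The complement genes C1QA, C1QB, C1QC, C1R, C1S, C3, C4BPA, CD55 and CD59 were followed in the cell-free RNA of vervet monkey (Chlorocebus sabaeus) amniotic fluid, each found by its symbol, and all 9 were among the 33994 genes measured. The study surveyed fetal RNA in amniotic fluid supernatant, the fluid left once cells are removed. Its 3 libraries came from a pregnancy labelled stillborn (sex label M), one labelled as a spontaneous abortion (sex label NA) and one labelled alive (sex label F). Each status is thus 1 library, so status, sex, animal and library cannot be told apart. No treatment or genotype is on the labels, and the sources used here do not give gestational age.

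Complement is a cascade of plasma proteins that marks surfaces for uptake and can pierce membranes. In its classical arm, C1q, built from the A, B and C chains, binds antibody or damaged surfaces and switches on the proteases C1r and C1s, which lead to cleavage of C3, the component on which all arms converge. C4b-binding protein, whose alpha chain is C4BPA, restrains the classical arm in fluid, CD55 dissociates the enzymes that cleave C3 on cell surfaces, and CD59 blocks the pore at the end of the cascade. Liver makes most plasma complement, while macrophages are the main source of C1q, and CD55 and CD59 sit on most cells, those of the fetal membranes and trophoblast included.

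Where 3 values follow each other below, they stand in the order stillborn, spontaneous abortion and alive. The libraries held 17749954 assigned reads (stillborn), 29926352 (spontaneous abortion) and 20220899 (alive). RPKM, the deposited unit, divides reads by gene length and by library depth, and the whole reads behind each value were recovered from the printed digits as lower bounds. Between libraries the ratio is that of reads scaled by TMM factors (trimmed mean of M-values), and its exact Clopper-Pearson 95% interval covers counting error only. With 1 library a status there is no test and no p-value. A gene is called apart when the ratio is at least 4-fold, the interval excludes 1 and the higher library has at least 30 reads, and a second count uses 2-fold in place of 4-fold. In cell-free RNA such as this, the number of source cells, their RNA content, and the release and decay of RNA cannot be told apart.

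The labelled fluid was rich in epithelial RNA. The 10 simple epithelial markers summed to RPKM 2210 (stillborn), 3001 (spontaneous abortion) and 3327 (alive), and the 12 squamous markers to 972, 533 and 357. Fibroblast and matrix markers (14 genes) summed to 345, 384 and 282, and the 13 hepatocyte markers to 221, 270 and 263, with AHSG at 0 in every library. The 7 trophoblast markers found summed to 19.6, 20.0 and 16.7, and the 14 lymphocyte markers to 3.98, 0.477 and 17.6. The 8 endothelial markers summed to 1.28, 1.80 and 1.32, and the 7 erythroid markers to 0.216, 2.02 and 0.235. Several of these sums rest mostly on few genes and do not measure the share of a cell type. WFDC2 was at 1737, 2378 and 2545, APOA2 at 146, 208 and 189, and HTRA4 at 13.5, 13.6 and 13.5. GNLY was at 1.51, 0.256 and 8.84 and GZMB at 1.81, 0.220 and 8.44. CD3G had 10, 0 and 0 reads and CD8A 12, 0 and 0, while NKG7 and KLRD1 had 0, 0 and 1 each. CD3D, CD3E, PRF1 and MS4A1 were at 0 in every library.

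The complement members were modest transcripts in this fluid except for CD59. Their values summed to RPKM 29.7 (stillborn), 19.6 (spontaneous abortion) and 21.1 (alive), of which CD59 alone made 61.6%, 91.0% and 74.3%. The spontaneous abortion library was the lowest for 6 of the 9 members (C1QA, C1QB, C1QC, C3, C4BPA and CD55) and the highest for 0, on the deposited and on the scaled values. The share of all genes at these places is not given here, so the count is a description only. The places of C1QA (1, 1 and 4 reads) and of C4BPA below the alive library (0 and 2 reads) rest on intervals that include 1. By the deposited values the stillborn library was the highest for 4 members and the alive library for 5. After scaling the counts were 6 and 3, with C1QC and C3, close between those libraries, changing place. At least 10 reads were reached by 6 members (stillborn), 3 members (spontaneous abortion) and 5 members (alive).

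**Figure D1:**
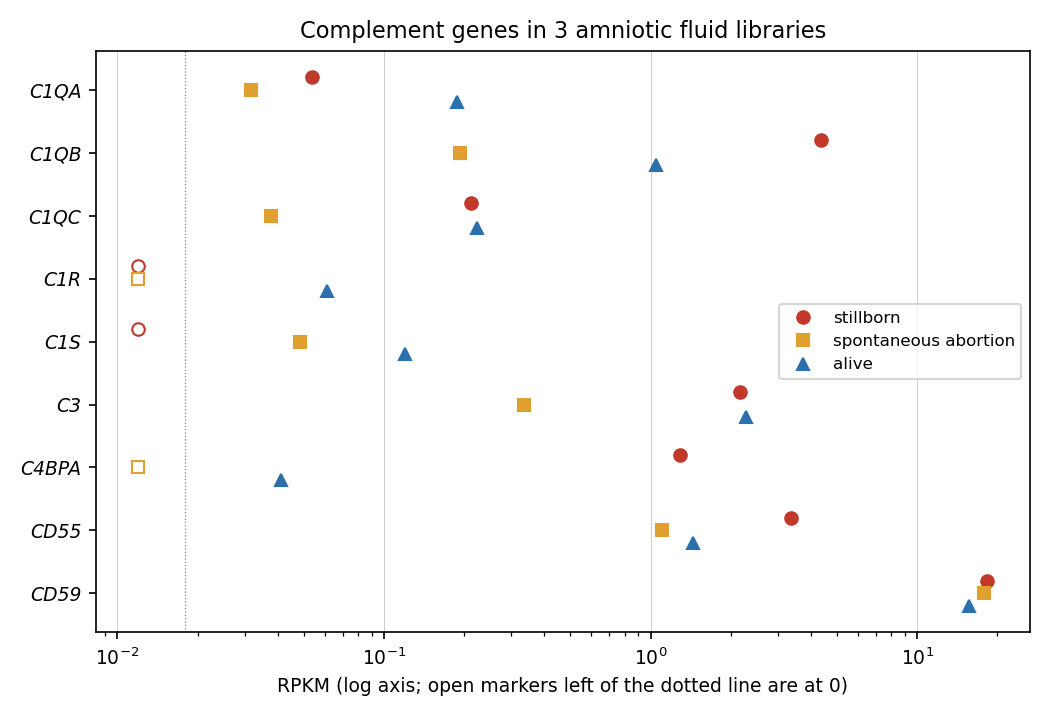
RPKM on a log axis of the 9 complement members in the stillborn (circles), spontaneous abortion (squares) and alive (triangles) libraries, 1 value per gene and library, with open markers for values of 0. CD59 lies between 15.7 and 18.3 in all 3 libraries, while C3 and the C1q chains lie lowest in the spontaneous abortion library.

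By RPKM, most of the recognition unit C1q came from 1 chain, C1QB. By reads, C1QB and C1QC were level in the spontaneous abortion (3 and 3) and close in the alive library (11 and 12). C1QB, the B chain, was at RPKM 4.35 (stillborn), 0.194 (spontaneous abortion) and 1.05 (alive), from 40, 3 and 11 reads. The stillborn library was high, the spontaneous abortion library low and the alive library between them. C1QB was 4.64-fold higher in the stillborn than in the alive library (95% interval 2.33 to 10.02) and 24.5-fold higher than in the spontaneous abortion (7.79 to 124). It stood 5.28-fold below the alive library in the spontaneous abortion (1.39 to 29.5), with fewer than 30 reads in both.

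C1QC, the C chain, was at RPKM 0.211, 0.0376 and 0.223, from 10, 3 and 12 reads. Here the stillborn and alive libraries did not separate, with a ratio of 1.06 (0.411 to 2.68), and the spontaneous abortion library was low, 5.76-fold below the alive library (1.55 to 31.8) and 6.12-fold below the stillborn (1.58 to 34.6). C1QA, the A chain, had 1, 1 and 4 reads, at RPKM 0.0536, 0.0318 and 0.188. Its ratio was 0.319 for stillborn over alive (0.00647 to 3.22) and 0.174 for spontaneous abortion over alive (0.00353 to 1.75), so no difference was detectable at this depth. Neither chain reached 30 reads in any library.

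Added over the chains, C1q held 51 reads (stillborn), 7 (spontaneous abortion) and 27 (alive), for summed RPKM of 4.62, 0.263 and 1.46. After scaling, summed RPKM was 3.54-fold higher in the stillborn than in the alive library, 19.1-fold higher than in the spontaneous abortion, and the spontaneous abortion stood 5.41-fold below the alive library. Pooled reads, in which a longer chain weighs more and which alone allow a counting interval, gave smaller ratios for the stillborn library. They were 2.41-fold higher there than in the alive library (1.48 to 3.99) and 13.4-fold higher than in the spontaneous abortion (6.04 to 34.9), while the spontaneous abortion lay 5.55-fold below the alive library (2.36 to 15.1). Without C1QB, 11 and 16 reads remained in the stillborn and alive libraries. The upper bound of their ratio, 2.01, lay below the 2.41-fold seen with C1QB. The interval still overlapped the one with C1QB (1.48 to 3.99), so these few reads do not exclude a smaller rise. The pooled reads of C1QA and C1QC, a sum formed after the values had been seen, gave 0.876 for stillborn over alive (0.368 to 2.01), while the spontaneous abortion library was still 5.76-fold below the alive one (1.86 to 23.7).

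The chains assemble in equal numbers in the protein, and their genes adjoin each other, with 0 protein-coding genes between C1QA and C1QC or between C1QC and C1QB in RefSeq's gene table for mChlSab1.0.hap1. Per length, C1QB RNA stood above that of the other chains in the stillborn and alive libraries, while in the spontaneous abortion every interval included 1. C1QB stood at 20.6 times C1QC in the stillborn (10.1 to 46.2), 5.15 times in the spontaneous abortion (0.690 to 38.4) and 4.72 times in the alive library (1.89 to 11.7). Against C1QA it was 81.2 times higher in the stillborn (13.8 to 3288), 6.09 times in the spontaneous abortion (0.489 to 320) and 5.58 times in the alive library (1.65 to 24.0). C1QC and C1QA did not separate from each other in any library, with ratios of 3.94 (0.561 to 171), 1.18 (0.0950 to 62.1) and 1.18 (0.359 to 5.03). The length implied by the smallest whole reads was 518 bases for C1QB, 1052 for C1QA and 2667 for C1QC. Whole reads are known only up to a common factor per gene, and if the C1QB reads were 80, 6 and 22, its stillborn over alive interval would run from 2.86 to 7.81 at the same ratio.

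**Figure D2:**
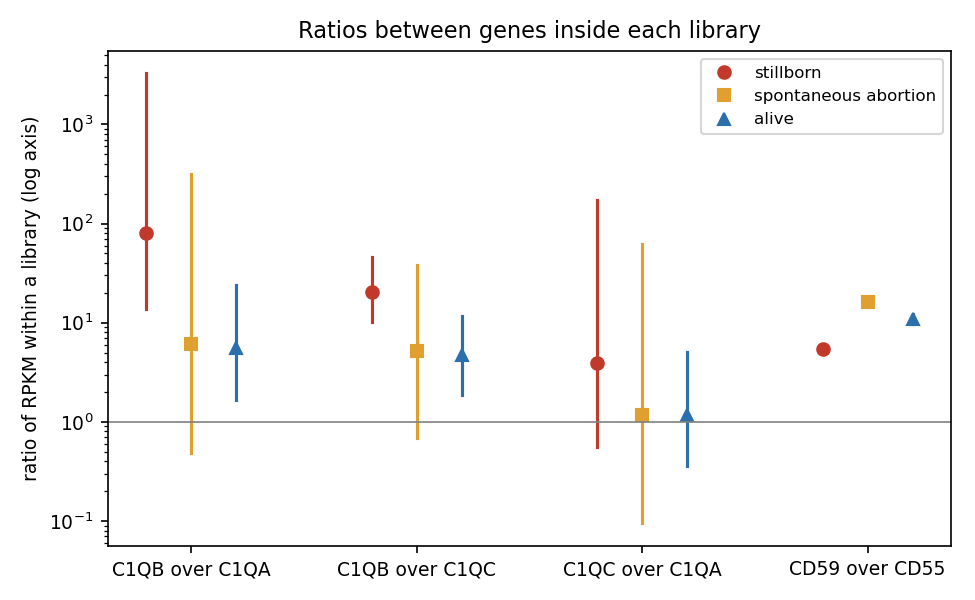
Ratio of RPKM between 2 genes of the same library on a log axis, with the exact 95% counting interval as a bar, for the stillborn (circles), spontaneous abortion (squares) and alive (triangles) libraries. C1QB over C1QC is 20.6 in the stillborn against 5.15 and 4.72 in the others, and CD59 over CD55 is 5.45, 16.1 and 10.8 in that order.

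Few reads were assigned to the proteases that C1q switches on. C1R, which cleaves C1s, had 0 reads in the stillborn and the spontaneous abortion library and 3 in the alive library, at RPKM 0.0613. Counts of 0 allow up to 3 reads, or RPKM 0.0698 in the stillborn and 0.0414 in the spontaneous abortion. C1S, which cleaves C4 and C2, had 0, 3 and 5 reads, at RPKM 0, 0.0486 and 0.120, and its ratio for spontaneous abortion over alive was 0.417 (0.0647 to 2.14). The interval of every C1R and C1S ratio that could be formed included 1. Fibroblasts are a known source of both proteases. In the same libraries the 14 fibroblast and matrix markers had a median RPKM of 3.92, 7.66 and 6.46. They ranged widely, with LUM, the highest, at 222, 239 and 158 and PDGFRA at 0.0398, 0.0118 and 0.0240. Neither symbol was found in the RefSeq gene table used here. The sources do not say how reads in overlapping or duplicate gene models were counted. Low RNA of C1R and C1S thus cannot be told apart from reads that were not assigned to them.

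C3, the central component, was at RPKM 2.16 (stillborn), 0.337 (spontaneous abortion) and 2.29 (alive), from 179, 47 and 216 reads. The stillborn and alive libraries did not separate, at a ratio of 1.06 (0.862 to 1.29), and the spontaneous abortion library stood apart from both. It was 6.62-fold below the alive library (4.81 to 9.28), and the stillborn library was 6.99-fold above it (5.04 to 9.86). C3 was the only member apart by 4-fold between the spontaneous abortion and the alive library.

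C4BPA, the alpha chain of the C4b-binding protein, was a transcript of the stillborn library. It was at RPKM 1.29 there from 55 reads, at 0 in the spontaneous abortion and at 0.0411 in the alive library from 2 reads. The stillborn library was 35.1-fold higher than the alive library (9.25 to 297). It was 33.6-fold higher than the spontaneous abortion with its 0 reads taken as 3, a value that is no 95% bound. The bound of the exact interval was 26.5-fold. C4BPB, the beta chain of the same protein, whose gene adjoins C4BPA in the RefSeq table, did not show this level, with 2 reads in the stillborn library and 0 in each of the others. Of the 12 markers of squamous epithelium, 8 were higher by 4-fold and 0 lower in the stillborn than in the alive library. Over all genes those shares were 2.73% and 1.87%. At 2-fold, 8 were higher and 1 lower, beside 7.6% and 7.24% of all genes. The lower was KRT5, at RPKM 49.1 (stillborn), 151 (spontaneous abortion) and 151 (alive). At the same fold, 8 of 13 monocyte and macrophage markers were higher and 0 lower, and 3 of 13 neutrophil markers higher and 1 lower. The part of squamous epithelium or of myeloid cells in the values of C4BPA and CD55 was not tested.

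CD55, the decay-accelerating factor, was at RPKM 3.36 (stillborn), 1.10 (spontaneous abortion) and 1.45 (alive), from 718, 397 and 352 reads. It was high in the stillborn library and low in the others, 2.60-fold above the alive library (2.29 to 2.96) and 3.32-fold above the spontaneous abortion (2.93 to 3.76). The spontaneous abortion over alive ratio was 0.783 (0.677 to 0.907). Its implied length of 12022 bases is the longest of the members, and RPKM divides by that length.

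CD59, the inhibitor of the membrane attack complex, was the most abundant member in every library, at RPKM 18.3, 17.8 and 15.7 from 1054, 1728 and 1029 reads. With a mean of 17.3 ± 1.39 (SD, n = 3 libraries) its spread relative to the mean was the smallest of the 9 members, and it ranked at place 2050, 2208 and 2541 of the 33994 genes. The ratio was 1.31 for stillborn over alive (1.197 to 1.42), 1.17 for spontaneous abortion over alive (1.08 to 1.26) and 1.12 between the losses (1.04 to 1.21). Without TMM factors the last was 1.03 and the first 1.17. Relative to CD55 in the same library, CD59 was 5.45 times as high in the stillborn (4.95 to 5.995), 16.1 times in the spontaneous abortion (14.5 to 18.1) and 10.8 times in the alive library (9.60 to 12.3), and these intervals did not overlap.

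In order of level, CD59 led every library. In the stillborn library C1QB and CD55 followed without separating from each other, then C3 and C4BPA, each apart from the next beyond counting error. In the alive library C3 came next, then CD55 and C1QB, which did not separate, and in the spontaneous abortion CD55 came next, then C3 and C1QB, which did not separate either. C1QA, C1QC, C1R and C1S filled the low end, where C4BPA joined them in the spontaneous abortion and alive libraries, and neighbours there did not separate.

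**Figure D3:**
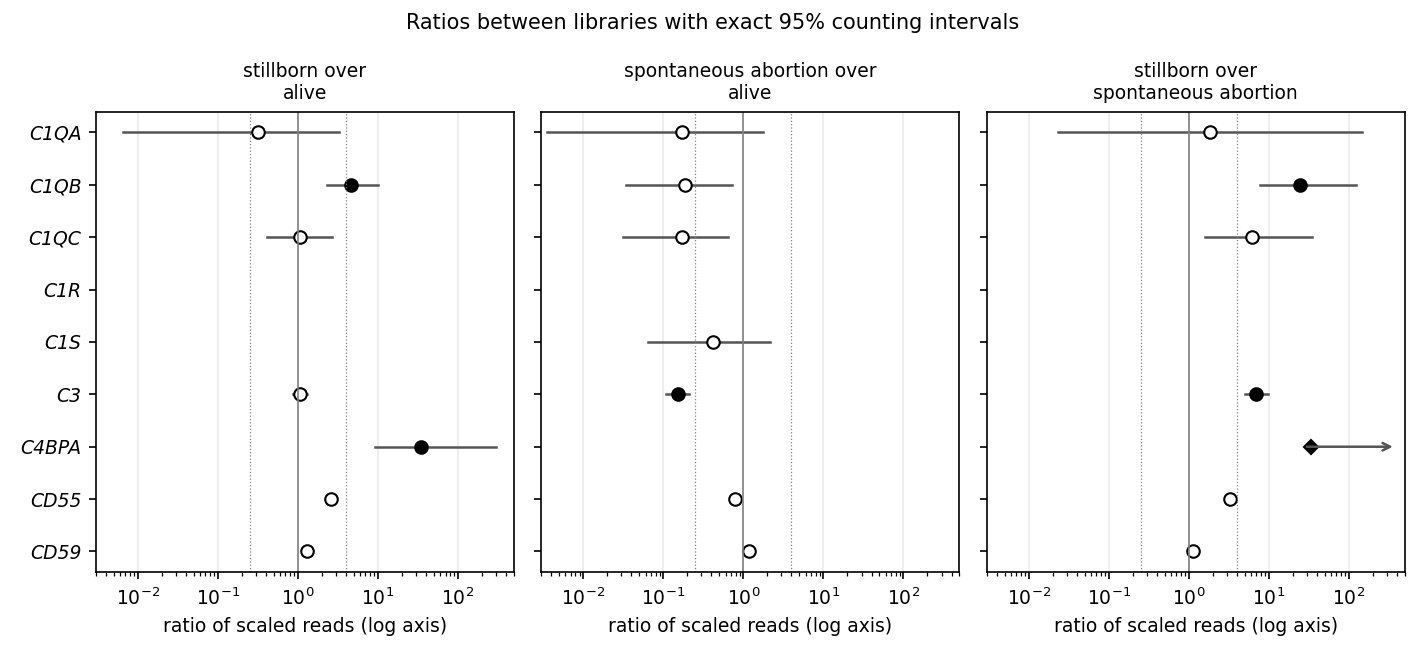
Ratio of scaled reads between 2 libraries on a log axis for each member, with the exact 95% counting interval as a line, filled symbols for genes apart by 4-fold and dotted lines at 4-fold either way. C4BPA over 0 reads is a diamond at 33.6 with an arrow from its bound of 26.5, and pairs with 0 reads that were not apart have no symbol.

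Counted over all members, 2 of 9 were apart by 4-fold as higher in the stillborn than in the alive library (C1QB and C4BPA) and 0 as lower. Of the 23268 genes compared, 2.73% were apart as higher and 1.87% as lower. At 2-fold CD55 joined them, for 3 higher and 0 lower, beside 7.6% and 7.24% of all genes. Between the spontaneous abortion and the alive library 0 members were higher and 1 lower (C3) at either fold, beside 1.37% and 0.898% of all genes at 4-fold and 4.57% and 3.4% at 2-fold. Between the losses, 3 members were higher in the stillborn library at 4-fold (C1QB, C3 and C4BPA) and 0 lower, beside 1.68% and 0.98% of all genes. At 2-fold there were 4 higher, CD55 among them, and 0 lower, beside 4.49% and 4.45%. With 9 members, each count rests on single genes, and C1QA, C1QC, C1R and C1S, short of 30 reads, could not be called in any pair, nor could C1QB and C4BPA between the spontaneous abortion and the alive library. The comparisons share libraries, so their counts are not independent.

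Over all 9 members the median difference of scaled log2(RPKM + 0.1) was 0.08 for stillborn over alive, -0.66 for spontaneous abortion over alive and 1.25 for stillborn over spontaneous abortion, beside 0, 0.02 and -0.02 over the 23276 genes above 0 in some library. Over C1QB, C3, CD55 and CD59, the 4 members with a mean RPKM of 1 or more, the medians were 0.85, -1.13 and 2.06, beside -0.01, -0.01 and -0.02 over the 10229 genes at that level. C1QB reached that mean only through its stillborn value, so the medians of these 4 are given as a description and support no difference.

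The other genes of the system were drawn from a list of 57 complement genes by role, 53 of which were in the files. Of the 44 that are not members, 38 had reads. In the stillborn against the alive library 5 of the 44 were apart by 4-fold on the high side and 2 on the low side. In the spontaneous abortion against the alive library the counts were 1 and 2, and between the losses 6 were higher in the stillborn and 0 lower. The shares of all genes were 2.73% and 1.87%, 1.37% and 0.898%, and 1.68% and 0.98% in the same order. At 4-fold, all of the genes that were higher in the stillborn library were receptors. At 2-fold, 8 of the 44 were higher and 4 lower in the stillborn than in the alive library, beside 7.6% and 7.24% of all genes. COLEC12 and CD46 were among the higher.

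Among the activators, C2, the partner of C4 in the classical C3-cleaving enzyme (listed as LOC103221735), was at RPKM 0.473 (stillborn), 0.937 (spontaneous abortion) and 0.901 (alive). COLEC12, a scavenger collectin, was at 1.12, 0.385 and 0.351, and was 3.57-fold higher in the stillborn than in the alive library (2.52 to 5.14). The lectin-arm genes MBL2 and FCN1 had 0 reads in every library. In the alternative arm, CFP, properdin, was at 0.427, 0.379 and 0.0312 from 12, 18 and 1 reads, and C5, which starts the terminal steps, was at 0.0455, 0.0154 and 0.0514.

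The pore-forming genes were near the limit of detection. C6 was at RPKM 0.0395, 0.0480 and 0.0121 from 20, 41 and 7 reads, and its spontaneous abortion over alive ratio was 4.07 (1.81 to 10.7). It was the only gene of the wider list apart by 4-fold as higher in that pair. C7 was read 5 times in the spontaneous abortion and 0 times elsewhere, C9 had 3, 4 and 4 reads, and C8A and C8B had 0 throughout.

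Of the other inhibitors in fluid, SERPING1 and CLU were lower in the stillborn library, where C4BPA was higher. SERPING1, the C1 inhibitor that inactivates C1r and C1s, was at RPKM 0.634 (stillborn), 1.45 (spontaneous abortion) and 3.82 (alive), from 43, 166 and 295 reads. It was 5.38-fold lower in the stillborn than in the alive library (3.90 to 7.59) and 2.56-fold lower in the spontaneous abortion (2.11 to 3.11). CLU, clusterin, which binds the terminal complex in fluid, was at 6.86, 8.56 and 16.1, or 2.10-fold lower in the stillborn (1.88 to 2.35) and 1.83-fold lower in the spontaneous abortion (1.68 to 2.00) than in the alive library. CFI, the protease that degrades C3b and C4b, was at 1.16, 1.37 and 1.36, with a stillborn over alive ratio of 0.955 (0.781 to 1.17).

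Of the other membrane inhibitors, CD46, the cofactor of factor I, was at RPKM 3.59 (stillborn), 3.32 (spontaneous abortion) and 1.95 (alive). Unlike CD55, which was low in the spontaneous abortion, CD46 was higher than in the alive library in both losses, 2.06-fold in the stillborn (1.91 to 2.22) and 1.75-fold in the spontaneous abortion (1.63 to 1.87). THBD, thrombomodulin, which aids inactivation of C3b, was at 2.21, 2.31 and 3.59. SUSD4 was 4.84-fold lower in the stillborn than in the alive library (2.02 to 14.0) from 6 and 37 reads, and CSMD1 4.84-fold lower in the spontaneous abortion (2.97 to 8.19) from 22 and 74 reads.

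**Figure D4:**
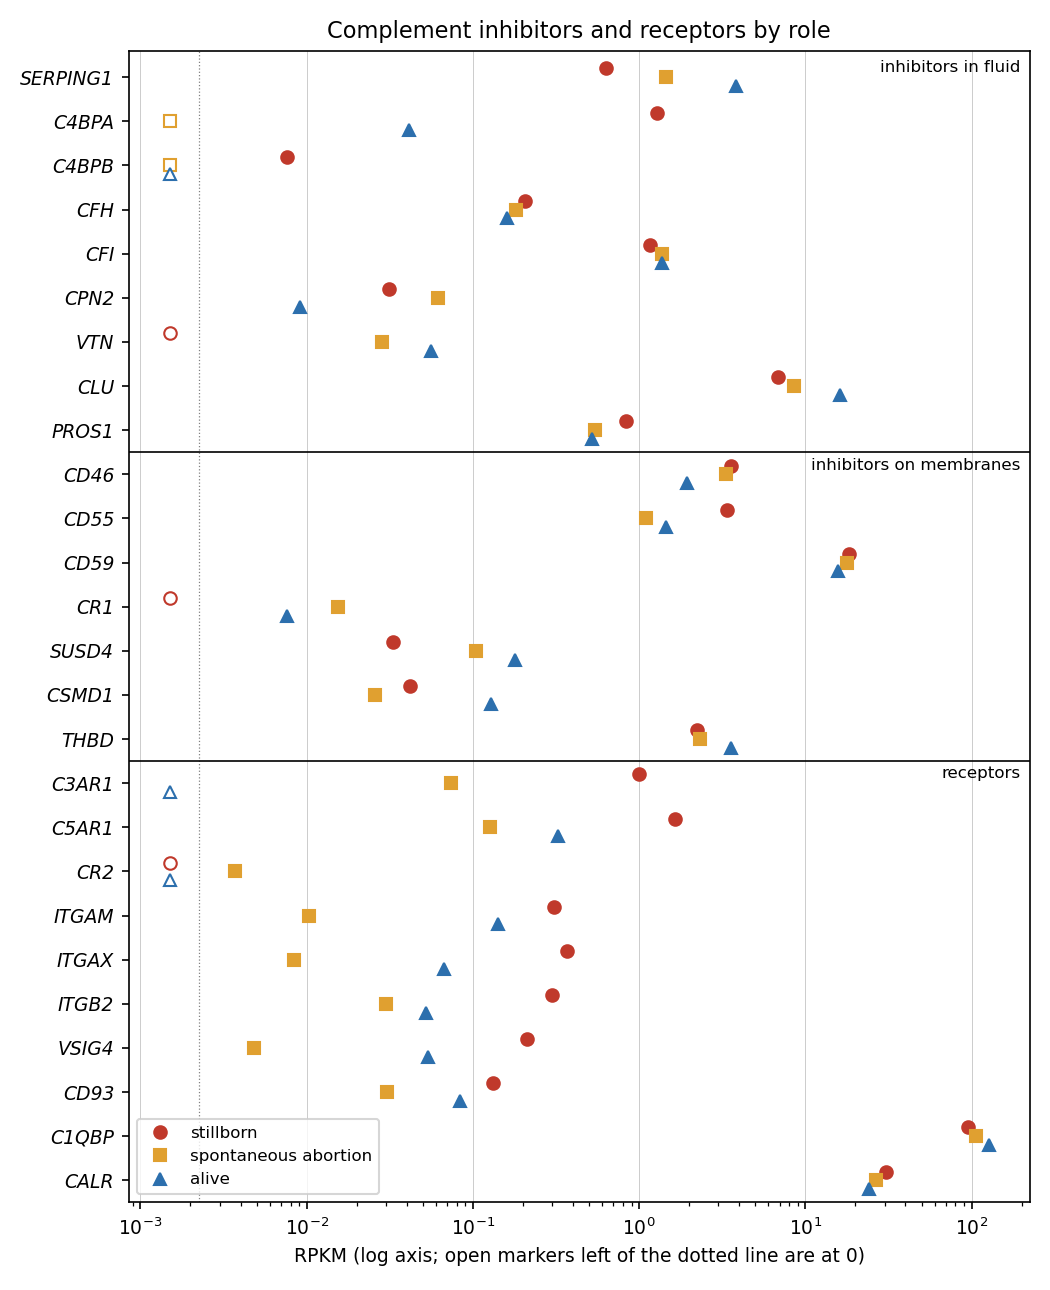
RPKM on a log axis of complement inhibitors and receptors with reads, by role, in the stillborn (circles), spontaneous abortion (squares) and alive (triangles) libraries, with open markers for values of 0. SERPING1 and CLU lie highest in the alive library, and C3AR1, C5AR1, ITGAM, ITGAX, ITGB2 and VSIG4 lie highest in the stillborn library.

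All 6 genes of the wider list that were apart by 4-fold between the losses were receptors of leukocytes, higher in the stillborn library by 10.8-fold (ITGB2, 5.68 to 22.8) to 47.7-fold (ITGAX, 15.7 to 236, and VSIG4, 12.6 to 404). C5AR1, the receptor of the C5a fragment, was at RPKM 1.65 (stillborn), 0.127 (spontaneous abortion) and 0.324 (alive), 5.72-fold higher in the stillborn than in the alive library (3.85 to 8.73). C3AR1, the receptor of C3a, was at 1.0003, 0.0742 and 0 from 56, 7 and 0 reads. With the 0 taken as 3 reads, it was 23.8-fold higher in the stillborn than in the alive library. As for C4BPA that value is no 95% bound, and the bound of the exact interval was 18.7-fold. The integrin chains of complement receptors that take up C3-coated particles went the same way, ITGAX 6.21-fold higher (3.60 to 11.4), ITGB2 6.37-fold (3.48 to 12.6) and ITGAM 2.45-fold (1.62 to 3.74). VSIG4, the complement receptor of tissue macrophages, was 4.42-fold higher (2.45 to 8.45). Against the alive library the spontaneous abortion was 13.3-fold lower for ITGAM (4.78 to 51.4), from 4 and 37 reads. For VSIG4 it was 10.8-fold lower (2.51 to 97.3), from 2 and 15 reads, too few to be called. The widely expressed C1q-binding proteins differed less. C1QBP was at 95.3, 106 and 127, with a stillborn over alive ratio of 0.840 (0.794 to 0.890), and CALR, calreticulin, was at 30.7, 26.4 and 24.2, with a ratio of 1.42 (1.30 to 1.55).

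Markers of myeloid cells and of squamous epithelium were read beside these values. The 13 monocyte and macrophage markers found summed to RPKM 65.1 (stillborn), 17.5 (spontaneous abortion) and 22.4 (alive). By 2-fold, 8 of 13 were higher and 0 lower when the stillborn was set against the alive library. For the spontaneous abortion against the alive library 1 was higher and 3 were lower, and for the stillborn against the spontaneous abortion 8 and 0. Over all genes these shares were 7.6% and 7.24%, 4.57% and 3.4%, and 4.49% and 4.45%. MARCO was at 0 in every library and CD163 at 0.0256, 0.0138 and 0.0491. CD14 was at 1.33, 0.165 and 1.44, TYROBP at 4.39, 0.280 and 1.30, and MRC1 at 1.24, 0.148 and 0.210. Of 13 neutrophil markers, S100A12, MPO, ELANE and AZU1 were at 0 in every library, S100A8 was at 7.11, 0.519 and 0, and the list summed to 54.6, 40.3 and 107, mostly from LTF at 33.3, 36.4 and 105. Of the 12 squamous markers, none at 0 in any library, 8 were higher and 0 lower by 4-fold in the stillborn than in the alive library. With the spontaneous abortion set against the alive library 1 was higher and 0 lower, and between the losses 2 were higher in the stillborn and 0 lower. At 2-fold these counts were 8 and 1, 4 and 0, and 8 and 1, the lower gene being KRT5 at 49.1, 151 and 151. At 4-fold the shares of all genes were 2.73% and 1.87%, 1.37% and 0.898%, and 1.68% and 0.98%. At 4-fold, 2 of the 13 monocyte and macrophage markers and 3 of the 13 neutrophil markers were higher in the stillborn than in the alive library. SPRR3, a protein of the cornified envelope, was at 131, 4.63 and 2.54, and CRNN, cornulin, at 41.3, 11.4 and 1.39. The part of these cell types in the values of C1QB, C3, C4BPA, CD55 and the receptors was not tested.

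The genes most like C1q, C3 and C4BPA were sought by distance between mean-centred log2(RPKM + 0.1) values over the 3 libraries, among 14133 genes with at least 30 reads in some library. Near the summed C1q chains were MS4A7 (distance 0.0693), SCGB3A2 (0.113), MNDA (0.152) and TYROBP (0.157). Nearest C3 were MYO1F (0.0362), CD14 (0.0595), GPX2 (0.152), TMEM158 (0.161) and HAVCR2 (0.294). Nearest C4BPA were KPRP (0.18), DKK4 (0.219), C14H2orf91 (0.223), ZEB2 (0.3) and DNASE2B (0.332). Within a distance of 0.5 there were 10 genes for C1q, 10 for C3 and 18 for C4BPA. MS4A7, MNDA, TYROBP, MYO1F and CD14 are known as genes of myeloid cells, SCGB3A2 of airway epithelium, and KPRP of keratinocytes. No cell type is given here for GPX2, TMEM158, HAVCR2, DKK4, C14H2orf91, ZEB2 and DNASE2B. The lists thus assign none of C1q, C3 and C4BPA to a cell type. With 3 libraries such likeness describes the order and spacing of 3 values.

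**Figure D5:**
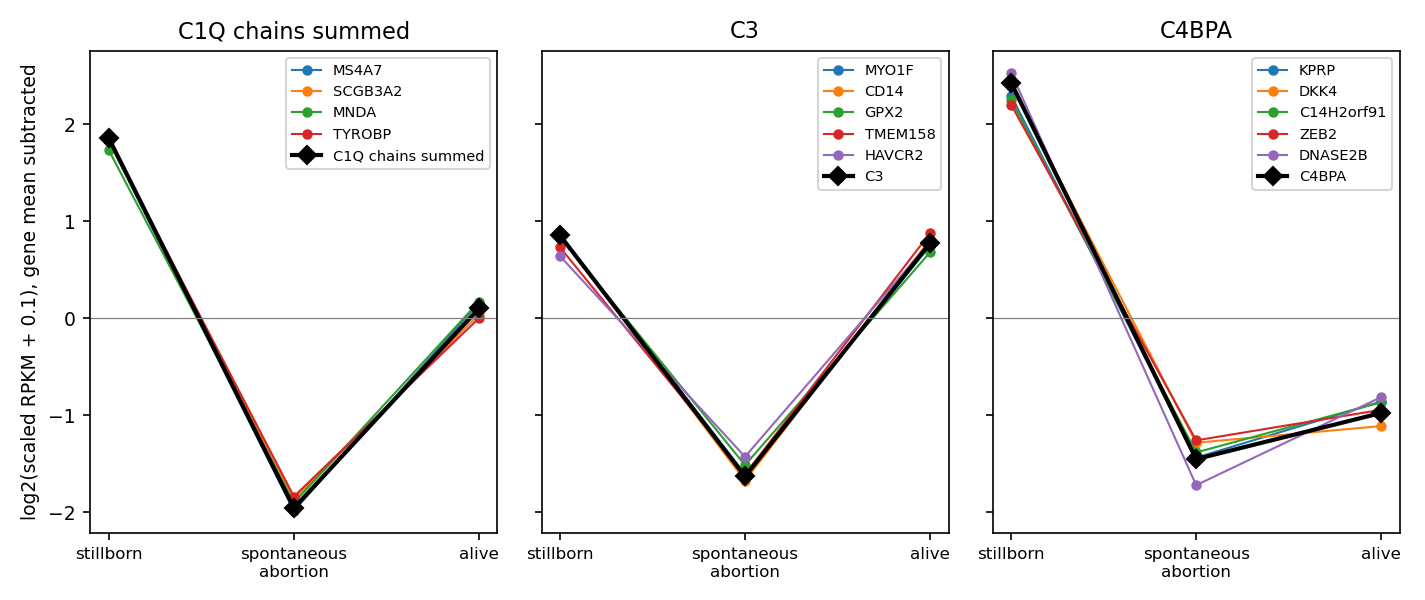
Log2(scaled RPKM + 0.1) with each gene's mean subtracted, in the 3 libraries, for the summed C1q chains, C3 and C4BPA (black diamonds) and the nearest genes of each (coloured points, joined only to mark the same gene). C1q and C4BPA peak in the stillborn library, and C3 is close in the stillborn and alive libraries and low in the spontaneous abortion.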

How the data were processed

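The authors deposited RPKM values, 1 per gene and library, made with STAR, HTSeq and bcl2fastq 2.17 per the submitters' processing notes. Per the labels' protocols, cDNA was made with an Ovation SPIA amplification kit, and molecular identifiers are not mentioned, so intervals cover counting error only. The sources used here do not give the versions of STAR and HTSeq, the build, annotation, strand setting or RPKM step, so no coordinates are printed, and reads of paralogs or overlapping genes may be split.

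Since RPKM of whole reads over a whole gene length is a fraction of the library total, totals and the smallest whole reads were solved for. They fitted 23268 of 23276 genes above 0 and added up to 96.6% to 97.1% of the totals. Recovery and calls were tested on simulated data. Differences were put only into genes with at least 30 expected reads in every library. Calls on genes with fewer reads, C1QB and C4BPA among them, were thus not covered. TMM factors, computed in Python 3.11.15 with numpy 2.4.6 and scipy 1.17.1, were 0.936 (stillborn), 1.02 (spontaneous abortion) and 1.05 (alive).

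Members, gene lists and tests were chosen with earlier results of these data known. Named from the wider list were the 3 genes of highest mean RPKM in each role and every gene apart by 4-fold. FCN1, MBL2, C4BPB, C8A and C8B were added after their values were seen, as were markers other than those at 0. Alternatives were total-read and upper-quartile scaling, thinning, 10 reads, pseudocounts and RPKM filters. C4A, C4B, CFB, FCN2, and protein and promoter sequences were not analysed here. Likeness names up to 5 genes per pattern, and 1 gene near C1q is not reported here.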

Additional observations from a re-analysis of the deposited data

How the results depend on the processing

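No paired analysis was possible because each status has 1 library, and no library could be left out. Of 40 member ratios under total-read and upper-quartile scaling, 38 stayed within their counting interval, and the other 2 were those of CD59 on total reads, 1.17 for stillborn over alive and 1.03 between the losses. None of the called member ratios changed direction under these scalings. Counts of members apart moved where fewer or more genes could pass. With mean RPKM held to 1 or more, and also without C1QB (an alternative chosen after seeing the data), 1 member was apart by 4-fold in the stillborn against the alive library in place of 2. At 10 reads in the higher library, 3 members were apart between the spontaneous abortion and the alive library in place of 1, at 4-fold and at 2-fold, as C1QB and C1QC then counted. Over all genes, the 4-fold counts for stillborn over alive, spontaneous abortion over alive and stillborn over spontaneous abortion were 1072, 528 and 618, at 10 reads 1876, 1142 and 1168, and at a mean RPKM of 1 or more they were 382, 141 and 179. The 2-fold counts were 3454, 1855 and 2081, and 1875, 720 and 846 with that filter. At 10 reads the second became 2897. The members' median log2 ratio moved with its filter, to 0.076, -0.66 and 1.25 without one, and to 0.38, 0.22 and 0.16 at a mean RPKM of 5 or more, where CD59 alone remained. With a pseudocount of 1 the last 2 were -0.47 and 1.23. For the wider list, whose medians were 0.08, -0.33 and 0.16, the spontaneous abortion over alive value was -0.026 at a mean RPKM of 5 or more and -0.58 with the mean over genes, and the value between the losses was 0.70 with the mean. Thinning moved none of these counts by over 1.5 times. Read numbers below 30 limit C1QA, C1QC, C1R and C1S.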
